A study of Homo sapiens with 24 samples.

Results

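The mRNAs of 10 members of the BCL2 family, the proteins that decide whether mitochondria release the signals for apoptosis, were followed through 24 SH-SY5Y libraries. The members were listed by name: BCL2, BCL2L1, MCL1, BAK1, BOK, BID, BCL2L11, BAD, HRK and BCL2L13, leaving out BAX, BBC3 and PMAIP1. They are 10 of 36741 gene identifiers in the treated table, 10 of 63241 in the untreated one and 10 of the 31524 that both hold. SH-SY5Y is a human neuroblastoma line, and MPP+ (1-methyl-4-phenylpyridinium) is a complex I poison used to model Parkinson's disease in such cells. The 8 groups had 3 libraries each: shMCART1 with MPP+, shScramble with MPP+, oeMCART1 with MPP+, oeNC with MPP+, and the same 4 without MPP+. MPP+ was given at 0.5 mM for 24 h. shMCART1 is a knockdown of MCART1, the mitochondrial NAD carrier now named SLC25A51, and shScramble is its scrambled control. oeMCART1 overexpresses the gene, and oeNC is the control of that arm. The labels do not give the hairpin sequence, the vector or promoter, or whether a line was 1 clone or a pool. Whether replicates came from separate cultures is not labelled, and the p-values therefore measure only the spread between these libraries. The values are TPM (transcript abundances scaled for transcript length and to a common total per library) for polyadenylated RNA from whole cultures, in which fewer cells of a type and less RNA per cell cannot be told apart.

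The family works by pairing. BCL2, BCL2L1 (BCL-XL) and MCL1 hold the killers in check, BAK1 and BOK can open the outer mitochondrial membrane, and the BH3-only proteins BID, BCL2L11 (BIM), BAD and HRK (Harakiri) bind the guardians or switch on the pore formers. BCL2L13 is a mitochondrial outer-membrane relative described as a mitophagy receptor. Much of the family's control is on protein stability, phosphorylation and position, which mRNA levels do not show. HRK and BCL2L11 are known in neurons as genes induced by JUN after loss of trophic support, and MCL1 as a short-lived protein.

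RefSeq's promoter table (GRCh38.p14, 250 bases before to 50 after the start) held 9 of the 10 members, MCL1 being the one with no entry. The windows of HRK, which moved in opposite directions with knockdown and overexpression under MPP+, and of BCL2L1, whose response to overexpression differed with MPP+, are shown from 5′ to 3′ on the gene's strand, with matches to the motifs searched in capitals.
HRK promoter, chr12:116881392-116881691, minus strand: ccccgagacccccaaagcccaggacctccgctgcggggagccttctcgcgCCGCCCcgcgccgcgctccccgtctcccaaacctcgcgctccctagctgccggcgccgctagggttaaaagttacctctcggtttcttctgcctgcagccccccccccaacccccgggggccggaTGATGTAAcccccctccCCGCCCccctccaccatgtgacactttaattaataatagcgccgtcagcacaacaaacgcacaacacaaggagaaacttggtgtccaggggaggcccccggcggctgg
BCL2L1 promoter, chr20:31723914-31724213, minus strand: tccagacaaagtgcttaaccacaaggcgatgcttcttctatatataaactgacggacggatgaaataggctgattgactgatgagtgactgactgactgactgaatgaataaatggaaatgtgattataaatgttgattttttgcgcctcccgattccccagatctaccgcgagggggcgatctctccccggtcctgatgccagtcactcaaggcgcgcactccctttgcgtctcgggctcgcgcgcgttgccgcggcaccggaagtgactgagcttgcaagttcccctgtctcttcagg
The motifs searched on both strands were TGATGNAA (the composite of ATF4 with a C/EBP partner), TGANTCA (AP-1), TGACGTCA (CRE), GTAAACA (FOXO) and GGGCGG (GC box), none of which overlapped another in the windows shown. HRK held 1 TGATGNAA match, at -75 from the start, and 2 GC boxes, at -200 and -58. TGATGNAA was in 3.67% of 27305 promoters of that length and in 1 of the 9 members' windows. The GC box was in 44.6% of all promoters and in 7 of 9 members' windows, BCL2 and BCL2L1 being those without it. GTAAACA was in 3.41% of all promoters and, among the members, in BCL2L11 alone, at -223. TGANTCA (7.76% of all promoters) and TGACGTCA (1.98%) were in none of the 9 windows. A match describes letters and is not a measured binding site.

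To check the labels, the targeted gene SLC25A51 was examined in every group. Under MPP+ it was 5.33 ± 0.42 TPM in shMCART1 libraries and 7.91 ± 0.90 in shScramble libraries, and 936 ± 69 in oeMCART1 libraries against 8.49 ± 0.84 in oeNC libraries (SD, n = 3 each). Untreated, it was 7.28 ± 2.0 TPM in shMCART1 and 10.95 ± 0.38 in shScramble, and 683 ± 12 in oeMCART1 against 31.6 ± 3.5 in oeNC. The adjusted p from limma was 0.00239 for knockdown and 1.08e-12 for overexpression with MPP+, and 0.0195 and 2.37e-08 without it; the untreated knockdown missed the threshold without shMCART1 replicate 1 or 3 or shScramble replicate 2 (0.0514 to 0.0805). The untreated knockdown was called under 7 of 9 other settings (limma, adjusted p 0.00906 to 0.0758). Knockdown was partial, with shMCART1 at 0.675 of the shScramble mean with MPP+ and 0.665 without it. All 4 directions match the labels, but the untreated oeNC libraries, at 29.5 to 35.7 TPM, stood above all other libraries without the overexpression construct. The overexpression effect on SLC25A51 in log2(TPM + 1) was larger with MPP+ than without it, by 2.23 (limma, adjusted p = 1.32e-07). The 2 overexpression comparisons are therefore not alike in the size of the manipulation. Replicates correlated at 0.970 to 0.988, and 13022 to 14306 genes reached 1 TPM in a library. The defining markers of adrenergic neuroblastoma were largely absent: PHOX2A and DBH were at most 0.09 and 0.07 TPM in the 12 untreated libraries (both not analysed here in treated cells), and TH was at most 0.04 TPM in any library. GATA2 (15.2 to 39.1 TPM) and GATA3 (3.85 to 7.24 TPM) were present, and the summed list of 11 lay between 28.1 and 51.2 TPM. The 8 mesenchymal-type markers summed to 354 to 702 TPM, mostly VIM at 300.5 to 629 TPM. The labels name bone marrow as the tissue. The 8 blood and bone marrow markers summed to at most 1.71 TPM and PTPRC reached at most 0.17 TPM. The growth protocol also names HEK293T, and of 5 kidney lineage markers WT1 reached 2.15 to 15.6 TPM while CDH16 was at 0 in all libraries.

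The members span a wide range of abundance. TPM are scaled for transcript length, so levels can be set between genes: in every group BAD, BAK1, MCL1, BID and BCL2L13 were the abundant members, BCL2L1 lay between them and the rest, and BCL2L11, HRK, BCL2 and BOK were low. BAD was the most abundant by group mean except in untreated shScramble and oeMCART1 cells, where MCL1 was. The 10 genes together came to 229 to 271 TPM by group mean. The 3 guardians made up 35.6 ± 1.4% of that sum in untreated oeMCART1 cells and 20.2 ± 1.5% in oeNC cells with MPP+, the highest and lowest group means (SD, n = 3). The 4 BH3-only genes made up 37.7 ± 1.8% and 51.7 ± 1.3% in the same groups. These levels and shares were not corrected for transcript GC content, which ran from 45.1% (MCL1) to 66.3% (BAD) among the members and is taken up below.

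**Figure D1:**
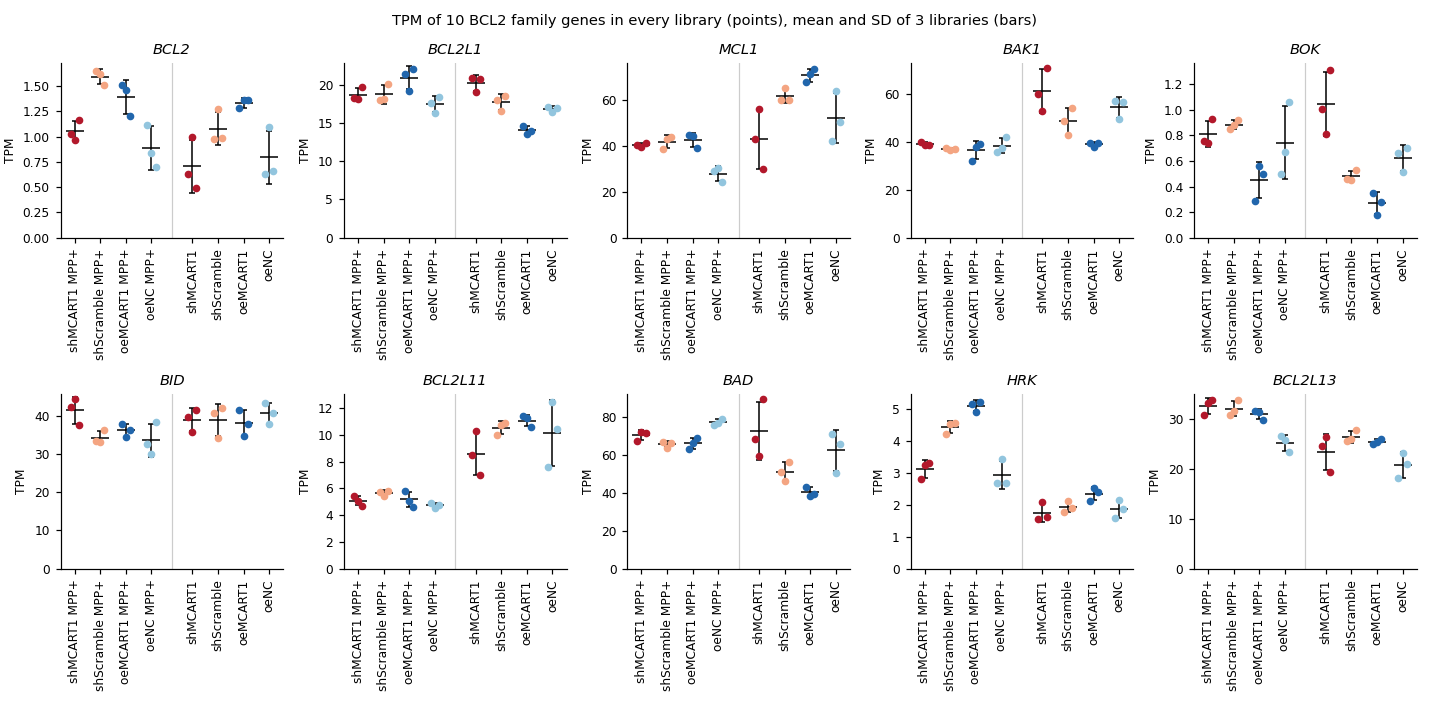
TPM of each member (y axis, from 0) in the 24 libraries, grouped on the x axis with the 4 MPP+ groups left of the line and the 4 untreated groups right of it; points are libraries, bars the mean and SD of 3. HRK sits between 2.68 and 5.22 TPM in the MPP+ libraries and between 1.56 and 2.51 TPM in the untreated ones, and MCL1 under MPP+ is lowest in the 3 oeNC libraries (24.5 to 30.4 TPM).

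A gene had to reach 1 TPM in 3 of the 12 libraries of a table; it was then tested with limma on log2(TPM + 1) and called at a Benjamini-Hochberg adjusted p under 0.05 over all genes tested; log2 changes are on that scale, which understates the change of low genes. BOK missed this filter, so 9 of 10 members were tested. Under MPP+, 2 of the 9 were called in shMCART1 against shScramble, where 33.1% of 14895 genes were called; 1 rose and 1 fell (10.8% and 22.2% of all genes). In oeMCART1 against oeNC under MPP+ 6 of 9 were called, against 60.9% of all genes; 5 rose and 1 fell (46.7% and 14.2%). Untreated, 3 of 9 were called in shMCART1 against shScramble (34.2% of 14703 genes); 2 rose and 1 fell (8.64% and 25.6%). In untreated oeMCART1 against oeNC 3 of 9 were called (48.2%); 0 rose and 3 fell (33.5% and 14.7%). The untreated knockdown is the least firm of the 4: limma called 5035 genes in all, 2 when shScramble replicate 2 was left out, 971 when shMCART1 replicate 3 was left out, and 0 with only those 2 groups in the fit (5799 at an unadjusted p under 0.05). By direction the untreated counts lay farther from the shares of all genes, which was not tested. With overexpression 0 rose and 3 fell of 9, against 33.5% and 14.7%, and with knockdown 2 rose and 1 fell, against 8.64% and 25.6%. The totals called in either direction lie near the background, so the family as a whole does not stand out by how many members moved. Its median log2 change was also near that of all genes: -0.00 against -0.08 (knockdown, MPP+), 0.25 against 0.26 (overexpression, MPP+), -0.09 against -0.15 (knockdown, untreated) and 0.13 against 0.16 (overexpression, untreated). What follows concerns single genes.

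**Figure D2:**
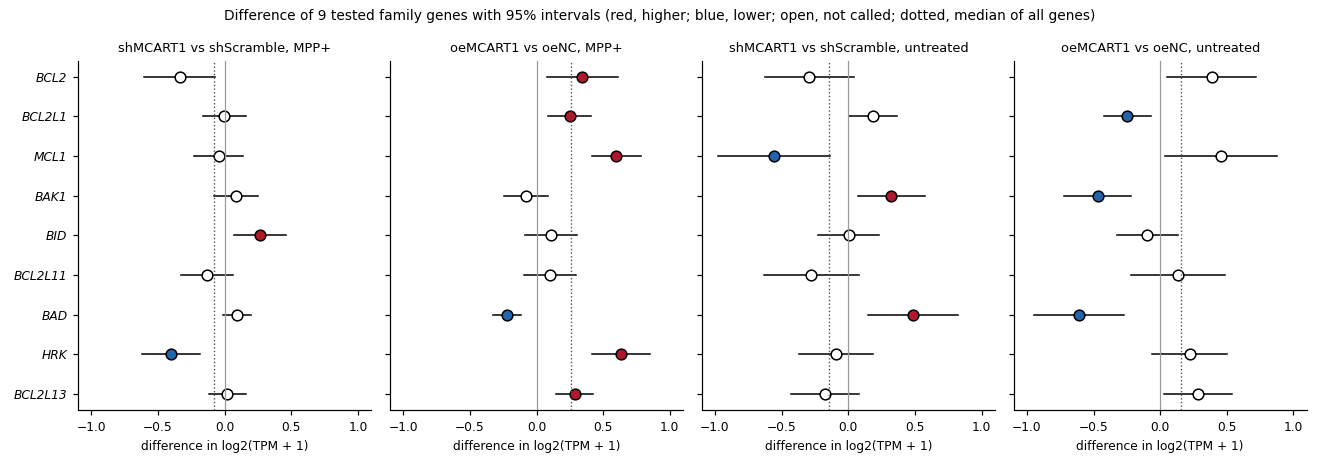
Difference in log2(TPM + 1) (x axis) of the 9 tested members (rows) in the 4 comparisons (panels), with 95% intervals; red is called higher, blue called lower, open not called, and the dotted line is the median of all genes tested. Under MPP+ overexpression, MCL1 (0.60) and HRK (0.63) lie farthest right of that median, and BAD (-0.22) is the 1 member called lower.

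MCL1, the short-lived guardian, was higher with overexpression under MPP+. It had 44.98, 44.33 and 39.24 TPM in oeMCART1 cells with MPP+ and 29.19, 30.36 and 24.46 TPM in oeNC cells with MPP+. The groups did not overlap, and all 3 oeNC libraries lay below each of the 9 other MPP+ libraries, which ran from 38.58 to 44.98 TPM. The log2 change was 0.60 ± 0.08 (SE; limma, adjusted p = 7.77e-05), and 0.19 (adjusted p = 0.0192) with the GC trend removed. Knockdown under MPP+ left MCL1 at 40.66, 39.54 and 41.51 TPM in shMCART1 cells and 38.58, 43.28 and 43.90 TPM in shScramble cells, a log2 difference of -0.04 (95% interval -0.23 to 0.14). Untreated, MCL1 fell with knockdown: it had 43.14, 56.07 and 29.97 TPM in shMCART1 cells and 60.15, 65.60 and 60.20 TPM in shScramble cells. The shMCART1 libraries were widely spread but all lower (log2 change -0.56 ± 0.19 SE; limma, adjusted p = 0.0427). This call was lost when any 1 library other than shMCART1 replicate 2 was left out (adjusted p 0.0717 to 0.159), and the change was -0.23 (adjusted p = 0.131) with the GC trend removed. With overexpression in untreated cells it was 68.05, 71.66 and 73.58 TPM in oeMCART1 and 42.40, 63.99 and 50.43 TPM in oeNC, which did not overlap but was not called (0.46, limma adjusted p = 0.0672; 0.61 and 0.0235 without oeNC replicate 2). Over the 9 other settings this change ran from 0.04 to 0.46, and 2 of them called it (limma, adjusted p 0.0276 to 0.787).

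BCL2L1, the guardian BCL-XL, was called higher with overexpression under MPP+ and lower without it in the reported analysis. With MPP+ it had 21.44, 19.18 and 22.00 TPM in oeMCART1 cells and 17.56, 16.29 and 18.37 TPM in oeNC cells. Without MPP+ it had 14.57, 13.60 and 13.95 TPM in oeMCART1 cells and 17.07, 16.43 and 16.99 TPM in oeNC cells. Neither pair of groups overlapped, and the untreated oeMCART1 libraries were the lowest 3 of all 24. The log2 changes were 0.25 ± 0.07 with MPP+ and -0.25 ± 0.08 without it (SE; limma, adjusted p = 0.0121 and 0.0283). The medians of all genes were 0.26 and 0.16, so the MPP+ change lay at the median. The difference between the effects, which was tested itself, was 0.49 (95% interval 0.28 to 0.71; limma, adjusted p = 0.00208), and BCL2L1 was the 1 member of 9 called for it, against 19.9% of 13571 genes. The difference was called under all 9 other settings and without each of the 12 libraries in turn. The effect on SLC25A51 itself also differed (2.23, limma adjusted p = 1.32e-07), and its part in the BCL2L1 difference was not tested. The 2 single effects were less firm. With median-of-ratios scaling, which brings the median of all genes in the MPP+ comparison to -0.01, the MPP+ effect was -0.06. It was also negative with quantile normalization. The MPP+ call was lost without oeNC replicate 2 (0.20, adjusted p = 0.052), and the untreated call was lost without any 1 library other than oeNC replicate 2 (adjusted p 0.050 to 0.094) and with the GC trend removed (-0.081, adjusted p = 0.264). With knockdown BCL2L1 was not called: the log2 difference was -0.00 (95% interval -0.17 to 0.16) under MPP+ and 0.18 (0.00 to 0.36) untreated.

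BCL2, the founding guardian, was near the limit of the filter at 0.49 to 1.65 TPM. Under MPP+ it had 1.03, 0.97 and 1.16 TPM in shMCART1 cells and 1.65, 1.62 and 1.51 TPM in shScramble cells, and 1.51, 1.46 and 1.20 TPM in oeMCART1 cells against 1.12, 0.84 and 0.70 TPM in oeNC cells. Both pairs of groups were separate. The first missed the threshold (log2 change -0.34, limma adjusted p = 0.0524) and the second passed it (0.34, adjusted p = 0.028). The second call was lost without 1 of 4 libraries (oeMCART1 replicate 1 or 2, oeNC replicate 2 or 3; adjusted p 0.068 to 0.0971), and it was called under 3 of 8 other settings (0.18 with median-of-ratios scaling, -0.04 with the GC trend removed; adjusted p 0.0290 to 0.765). Untreated, BCL2 averaged 0.71 ± 0.26 TPM in shMCART1 and 1.08 ± 0.16 in shScramble, and 1.33 ± 0.05 in oeMCART1 against 0.80 ± 0.26 in oeNC (SD, n = 3 each), neither called (limma, adjusted p = 0.142 and 0.0534; 0.047 without shMCART1 replicate 2 and 0.0215 without oeNC replicate 2). Over 8 other settings the untreated knockdown change ran from -0.59 to 0.01 and was called in 0 (limma, adjusted p 0.0950 to 0.955). The untreated overexpression change ran from 0.01 to 0.71 and was called in 1 (adjusted p 0.0317 to 0.969).

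BAK1, the pore former that sits in the outer membrane, moved in untreated cells. With overexpression it had 39.36, 37.96 and 39.43 TPM in oeMCART1 cells and 57.19, 49.48 and 56.48 TPM in oeNC cells. The groups were well apart (log2 change -0.47 ± 0.11 SE; limma, adjusted p = 0.00829), and the call held under all 9 other settings and all 6 left-out libraries. With knockdown it had 60.01, 52.82 and 70.96 TPM in shMCART1 cells and 48.63, 43.06 and 54.28 TPM in shScramble cells. That call was marginal and the groups overlapped (0.32 ± 0.11 SE; limma, adjusted p = 0.0485); it was lost without shMCART1 replicate 1 or 3 or shScramble replicate 1 or 2 (adjusted p 0.0918 to 0.183) and with the GC trend removed (0.13). Under MPP+ BAK1 was not called in either arm: it averaged 39.3 ± 0.68 TPM in shMCART1 and 36.9 ± 0.38 in shScramble, and 36.4 ± 3.7 in oeMCART1 against 38.5 ± 3.3 in oeNC. In the second of these it was called lower with median-of-ratios scaling (-0.40, limma adjusted p = 0.00271). The difference between the overexpression effects with and without MPP+ was 0.39 (adjusted p = 0.054; 0.0248 to 0.0311 without oeMCART1 replicate 1 or oeNC replicate 3 with MPP+, or untreated oeNC replicate 2).

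BOK, a BAK-like protein whose pore activity is held down by degradation, was close to the floor at 0.18 to 1.31 TPM. Untreated, it had 1.01, 0.81 and 1.31 TPM in shMCART1 cells and 0.46, 0.45 and 0.53 TPM in shScramble cells, and 0.35, 0.18 and 0.28 TPM in oeMCART1 cells against 0.66, 0.51 and 0.70 TPM in oeNC cells. Neither pair overlapped, and both gave the smallest p that 3 against 3 libraries allow in a two-sided exact permutation test of the means (0.1). With MPP+ it averaged 0.81 TPM in shMCART1 and 0.88 in shScramble, and 0.45 in oeMCART1 against 0.74 in oeNC (exact permutation p = 0.4 and 0.3; 4 tests, none adjusted). Without the filter on low values limma called both untreated changes (0.46, adjusted p = 0.0476, and -0.35, adjusted p = 0.0427).

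HRK was the member that moved with both manipulations under MPP+. It had 2.81, 3.25 and 3.29 TPM in shMCART1 cells and 4.22, 4.53 and 4.54 TPM in shScramble cells. It had 5.16, 4.89 and 5.22 TPM in oeMCART1 cells and 2.69, 3.44 and 2.68 TPM in oeNC cells. Neither pair of groups overlapped, but the 2 controls also differed from each other in level, shScramble lying above oeNC in every library. HRK fell with knockdown (log2 change -0.40 ± 0.10 SE; limma, adjusted p = 0.0095) and rose with overexpression (0.63 ± 0.10 SE; adjusted p = 0.000169). Both calls held under all 8 other settings that could be fitted and all 6 left-out libraries; with the GC trend removed the changes were -0.34 and 0.42. Untreated, HRK averaged 1.76 ± 0.28 TPM in shMCART1 and 1.93 ± 0.17 in shScramble, and 2.34 ± 0.20 in oeMCART1 against 1.87 ± 0.29 in oeNC, with overlap in both and no call (limma, adjusted p = 0.584 and 0.173). The difference between the overexpression effects was 0.41 and missed the threshold (adjusted p = 0.0606; 0.0302 without oeNC replicate 2 with MPP+, 0.0353 without untreated oeNC replicate 1), though it was called with the GC trend removed (0.35). That between the knockdown effects was -0.31 (adjusted p = 0.219).

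BID, which caspase-8 cuts to link death receptors to mitochondria, rose with knockdown under MPP+. It had 42.30, 44.26 and 37.50 TPM in shMCART1 cells and 33.28, 33.18 and 36.25 TPM in shScramble cells, without overlap (log2 change 0.26 ± 0.09 SE; limma, adjusted p = 0.0398). The call was lost without any 1 library other than shMCART1 replicate 3 (adjusted p 0.0507 to 0.140). In the 3 other comparisons BID was not called, with log2 changes of 0.11 (overexpression, MPP+; 0.21 and called without oeNC replicate 3), 0.00 (knockdown, untreated) and -0.10 (overexpression, untreated).

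BAD, the BH3-only protein that AKT phosphorylation and 14-3-3 binding keep in the cytosol, moved opposite to MCL1 wherever both were called. With overexpression under MPP+ it had 62.94, 66.22 and 69.02 TPM in oeMCART1 cells and 75.66, 76.87 and 79.08 TPM in oeNC cells (log2 change -0.22 ± 0.05 SE; limma, adjusted p = 0.00167). Untreated it had 43.08, 38.05 and 39.59 TPM in oeMCART1 cells and 71.11, 50.27 and 65.77 TPM in oeNC cells (-0.61 ± 0.15 SE; adjusted p = 0.00964), and 68.34, 59.63 and 89.35 TPM in shMCART1 cells against 50.78, 46.06 and 56.07 TPM in shScramble cells (0.48 ± 0.15 SE; adjusted p = 0.0343). None of these 3 pairs of groups overlapped. Of the 3 calls, that of untreated overexpression held under every setting and left-out library (-0.26 with the GC trend removed), that of MPP+ overexpression became 0.01 with the GC trend removed, and that of untreated knockdown was lost without shMCART1 replicate 1 or 3 or shScramble replicate 1 or 2 (adjusted p 0.0649 to 0.135) and was 0.18 (adjusted p = 0.150) with the GC trend removed. Exons of BAD share 404 of 1708 bases with GPR137 on the other strand (17.9 to 37.4 TPM). Per the labels' protocols the libraries were strand-specific, but the sources used here do not say whether counting used strand. BAD values are uncertain to that extent. Knockdown under MPP+ did not give a call (0.09, limma adjusted p = 0.153), and the overexpression effects with and without MPP+ differed by 0.38 (adjusted p = 0.116; 0.018 without untreated oeNC replicate 2; 0.26 and called with the GC trend removed).

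BCL2L11, which encodes the activator BIM, was called in none of the 4 comparisons. Under MPP+ its log2 change was -0.13 (95% interval -0.33 to 0.06) with knockdown and 0.10 (-0.09 to 0.30) with overexpression; untreated it was -0.28 (-0.63 to 0.08) and 0.13 (-0.22 to 0.49). The overexpression change under MPP+ turned to a lower call with quantile normalization (-0.23) and with the GC trend removed (-0.28). MIR4435-2HG, an antisense RNA that shares 727 of 6658 exon bases, had 38.87, 39.29 and 34.70 TPM in shMCART1 cells with MPP+ and 29.74, 23.48 and 23.36 TPM in shScramble cells with MPP+, so the same reservation on strand applies to BCL2L11.

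BCL2L13 rose with overexpression under MPP+: it had 31.60, 31.49 and 29.82 TPM in oeMCART1 cells and 26.63, 25.72 and 23.40 TPM in oeNC cells (log2 change 0.29 ± 0.06 SE; limma, adjusted p = 0.00206). As for MCL1, the 3 oeNC libraries were the lowest of the 12 with MPP+. The change was close to the median of all genes in that comparison (0.26) and was -0.03 with median-of-ratios scaling and 0.00 with the GC trend removed. In untreated cells it averaged 25.5 ± 0.52 TPM in oeMCART1 and 20.8 ± 2.6 in oeNC (not called, limma adjusted p = 0.0632; 0.0303 without oeNC replicate 2), and knockdown gave no call with MPP+ (0.02) or without it (-0.18). Over the 9 other settings the untreated overexpression change ran from 0.04 to 0.30, and 1 of them called it (limma, adjusted p 0.0476 to 0.672).

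Transcript GC content moved with many of these changes. Across all genes, log2 change and GC content had a Spearman correlation of 0.46 (knockdown) and -0.59 (overexpression) with MPP+, and 0.77 and -0.79 untreated; genes are not independent replicates. Among the members, the GC-rich ones are BOK (66.0%), BAD (66.3%), BAK1 (58.8%) and BCL2L1 (56.9%), and the others lie between 45.1% (MCL1) and 49.7% (BID). In untreated cells the GC-rich BAD and BAK1 were lower with overexpression and higher with knockdown. With each library's GC trend removed, 2 of 9 members were called with knockdown and 4 with overexpression under MPP+, and 0 and 2 untreated. Of all genes, 3989 and 6697 of 13923 were called in the same way under MPP+, and 1501 and 2580 of 14157 untreated. HRK (both arms), BID (knockdown), and MCL1, BCL2L1 and BCL2L11 (overexpression; 0.19, 0.26 and -0.28) were then called under MPP+, and BAK1 (-0.25) and BAD (-0.26) with overexpression untreated.

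**Figure D3:**
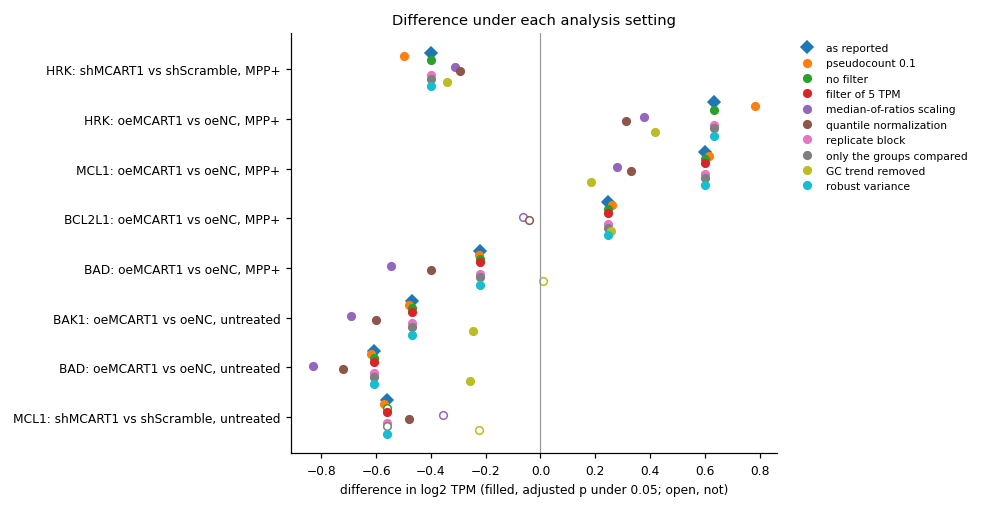
Difference in log2 TPM (x axis) of 8 results (rows) under the reported analysis (diamond) and 9 other settings (circles); filled symbols have an adjusted p under 0.05. HRK and MCL1 under MPP+ and BAK1 and BAD with untreated overexpression are filled throughout, while BCL2L1 with overexpression under MPP+ crosses 0 (-0.06 to 0.26).

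Levels with and without MPP+ can only be set side by side, because the 2 tables were scaled separately over different sets of genes, and no test was made. HRK ran from 2.68 to 5.22 TPM (median 3.83) in the 12 libraries with MPP+ and from 1.56 to 2.51 TPM (median 1.99) in the 12 without. BCL2L11 ran from 4.54 to 5.84 TPM (median 5.10) with MPP+ and from 7.04 to 12.49 TPM (median 10.5) without. Neither gene overlapped between the tables, HRK lying higher with MPP+ and BCL2L11 lower. HRK per BCL2L11 was 0.62 to 0.99 by group mean with MPP+ and 0.18 to 0.21 without. How many of all genes likewise did not overlap was not counted, so this is not shown to be particular to these 2 members. MCL1 had medians of 40.1 TPM with MPP+ and 60.2 TPM without, and BAK1 of 37.6 and 51.2 TPM, with overlap for both over the pooled groups. Within a construct MCL1 overlapped only in shMCART1 cells and BAK1 only in oeMCART1 cells. The lowest ratios of MCL1 to BAK1 were in oeNC cells with MPP+ (0.74 ± 0.13) and untreated shMCART1 cells (0.73 ± 0.32), and the highest was in untreated oeMCART1 cells (1.83 ± 0.09; SD, n = 3 each). The ratio was not corrected for GC content, which is 45.1% for MCL1 and 58.8% for BAK1. With the groups of each table pooled, BAD, BID, BCL2L1, BCL2, BOK and BCL2L13 overlapped between the tables. Within a construct this was not always so. BCL2L13 was higher with MPP+ without overlap in every construct, with 30.92 to 33.78 TPM against 25.52 to 27.77 TPM in shScramble cells. BAD had 62.94 to 69.02 TPM with MPP+ and 38.05 to 43.08 TPM without in oeMCART1 cells, and overlapped only in shMCART1 cells. BID overlapped in every construct. How many of all genes did not overlap within a construct was not counted either. The separations of MCL1, BAK1, BCL2L13 and BAD are therefore not shown to be particular to these members. The differences in the knockdown effect between MPP+ and untreated cells were called for 0 of 9 members (4.49% of 13571 genes). At an unadjusted p under 0.05 there were 2 of 9, BAD and MCL1, and 3237 of the 13571 genes. Without untreated shMCART1 replicate 2 those 2 members were called (-0.52 and 0.72), as were 2559 of 13520 genes.

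The 3 best known relatives outside the listed members had the following levels. BAX, the cytosolic pore former, rose to 299 ± 18 TPM in oeMCART1 cells with MPP+, against 160 ± 30 TPM in oeNC cells with MPP+ (log2 change 0.91; limma, adjusted p = 6.2e-05). BBC3 (PUMA) was 21.7 ± 0.85 TPM in shMCART1 and 17.0 ± 1.4 TPM in shScramble with MPP+ (0.34, adjusted p = 0.00326; 0.15 and 0.0949 with the GC trend removed), and PMAIP1 (NOXA) was 19.6 ± 4.4 TPM in shMCART1 and 31.7 ± 5.8 TPM in shScramble untreated (-0.67, adjusted p = 0.0213; 0.0779 without shMCART1 replicate 3 and 0.0933 without shScramble replicate 2; -0.054 and 0.606 with the GC trend removed). Of the 13 listed relatives, 2 rose and 0 fell of 8 tested with knockdown under MPP+ and 2 rose and 1 fell with overexpression under MPP+; untreated, of 9 tested, 4 rose and 2 fell with knockdown and 3 rose and 1 fell with overexpression. For this and the lists that follow, the shares of all genes called higher and lower were 10.8% and 22.2% (knockdown, MPP+), 46.7% and 14.2% (overexpression, MPP+), 8.64% and 25.6% (knockdown, untreated) and 33.5% and 14.7% (overexpression, untreated).

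Downstream of the mitochondria, the 13 genes of the apoptosome and caspases were called mostly lower with knockdown and mostly higher with overexpression, as all genes were. Under MPP+, 0 rose and 5 fell with knockdown (10.8% and 22.2% of all genes) and 9 rose and 1 fell with overexpression (46.7% and 14.2%). The list's median log2 change was -0.33 against -0.08 for all genes with knockdown, and 0.34 against 0.26 with overexpression; untreated it was -0.17 against -0.15 with knockdown and 0.34 against 0.16 with overexpression. CYCS, cytochrome c, averaged 54.2 TPM in shMCART1 and 86.8 TPM in shScramble, and 115 TPM in oeMCART1 against 49.9 TPM in oeNC (log2 change -0.66 and 1.20; limma, adjusted p = 0.00668 and 3.74e-05). CASP2, an initiator caspase, changed by -0.40 and 0.68, and APAF1, the apoptosome scaffold, by -0.38 with knockdown. Untreated, 1 rose and 3 fell with knockdown, and 6 rose and 1 fell with overexpression; CYCS changed by -0.66 and 0.78.

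Of 7 tested caspase inhibitors and antagonists, 0 rose and 1 fell with knockdown (10.8% and 22.2% of all genes) and 4 rose and 2 fell with overexpression (46.7% and 14.2%) under MPP+, and 1 rose and 2 fell, and 3 rose and 1 fell, untreated. BIRC2 (cIAP1) fell with knockdown (2.62 TPM in shMCART1, 4.76 TPM in shScramble) and rose with overexpression (5.28 TPM in oeMCART1, 1.79 TPM in oeNC) under MPP+. XIAP, the direct caspase blocker, changed by -1.20 with knockdown and 0.78 with overexpression in untreated cells, and HTRA2, which antagonises such blockers, fell with overexpression under MPP+ (-0.30). Of 10 binding partners and mitochondrial ports, 3 rose and 3 fell with knockdown (33.1% of all genes called either way) and 4 rose and 3 fell with overexpression (60.9%) under MPP+, and 2 rose and 3 fell, and 3 rose and 3 fell, untreated. VDAC3, an outer-membrane channel, changed by -0.63 and 0.78 under MPP+, and TMBIM6 (BAX inhibitor 1) averaged 265 TPM in oeMCART1 and 161 TPM in oeNC (0.71).

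Genes whose products stabilise, degrade or phosphorylate the family were also counted. Of 16 tested under MPP+, 2 rose and 5 fell with knockdown (10.8% and 22.2% of all genes) and 10 rose and 2 fell with overexpression (46.7% and 14.2%); of 15 untreated, 2 rose and 6 fell, and 7 rose and 3 fell. USP9X, the deubiquitinase of MCL1, averaged 13.7 TPM in shMCART1 and 21.8 TPM in shScramble with MPP+ (-0.64, limma adjusted p = 0.00835) and 40.8 TPM in oeMCART1 and 18.2 TPM in oeNC untreated (1.15, adjusted p = 0.0046). DYNLL1, the dynein light chain that holds BIM, changed by -0.50 and 1.03 under MPP+, YWHAB, a 14-3-3 protein of the kind that binds BAD, by -0.40 and 0.95, and PIM1, a kinase that phosphorylates BAD, by 1.25 with knockdown. Of 13 transcription factors known to act on family genes, 4 rose and 3 fell with knockdown (33.1% of all genes called either way) and 5 rose and 4 fell with overexpression (60.9%) under MPP+, and 1 rose and 2 fell, and 3 rose and 4 fell, untreated. JUN averaged 350 TPM in shMCART1 and 120 TPM in shScramble with MPP+ (1.54, limma adjusted p = 0.000198), and its relation to HRK was not tested. ATF5 changed by -0.62 with knockdown under MPP+, and with overexpression under MPP+ FOXO3 changed by 0.70, MYC by -0.59 and ATF4 by -0.24.

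The genes most like 5 of the members over the 24 libraries, after centring each table, were taken as those with the highest Pearson r of log2(TPM + 1) among 8337 or more candidates averaging 5 TPM or more in both tables. For MCL1 they were TBC1D4 (0.974), SEC23A (0.970) and LARP1B (0.968), and for BCL2L1 ZNF768 (0.934), ECHS1 (0.927) and HSD17B10 (0.916). For BCL2L11 they were IGF2BP1 (0.893), AUTS2 (0.872) and MED14 (0.867), for HRK GINS3 (0.937), SLC30A6 (0.931) and SLC25A13 (0.930), and for BCL2 LSM14A (0.960), PRR14L (0.953) and STIL (0.952). These values share the libraries, the groups and the GC relation above, and describe likeness of pattern only.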

How the data were processed

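Polyadenylated RNA of 24 libraries, 8 groups of 3, was analysed from 2 tables of TPM deposited by the authors, 1 for the 12 libraries with MPP+ and 1 for the 12 without. Per the labels' protocols the libraries were strand-specific; the submitters' processing notes list the builds GRCm38, mm10 and GRCh38 with no role, and the aligner and the counting tool were not given in the sources used here. TPM keep no depth, so the depth of each library is unknown and no counting interval is given. Entries without a gene identifier (42 of 36783 with MPP+, 25 of 63266 without) were left out. Locations, exon overlaps and transcript GC content came from GENCODE 29 (GRCh38), which may differ from the authors' annotation; GC content was known for 93.5% to 96.9% of tested genes.

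log2(TPM + 1) of genes that reached 1 TPM in 3 of the 12 libraries of a table was fitted with limma 3.58.1 in R 4.3.3 (trended empirical Bayes, the 4 groups of a table in 1 fit; all 24 libraries for differences between effects), with Benjamini-Hochberg adjustment over all genes. The pipeline was tested on simulated data. BOK was tested with an exact permutation test. Group means are TPM ± SD. Alternatives were a filter at a mean of 5 TPM or none, a pseudocount of 0.1, quantile normalization, median-of-ratios scaling, a replicate block, only the groups compared, removal of each library's GC trend (natural spline, 5 df), robust variances, and leaving out each library. Named were the 10 members, up to 4 called genes by smallest p of each other list and comparison, BAX, BBC3, PMAIP1, SLC25A51, and the 3 most correlated genes of 5 members. The members and lists were chosen with earlier results of these data known. Summaries and figures were made with pandas 2.3.3 and matplotlib 3.10.9 in Python 3.11.15. Some genes of the lists are not reported here by name. Same-numbered libraries of compared groups were not taken as paired.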

Additional observations from a re-analysis of the deposited data

Results flagged for a closer look

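The effect of overexpression on BCL2L1 differed between cells with and without MPP+: the log2 change of oeMCART1 against oeNC was 0.25 with MPP+ and -0.25 without, and the difference of 0.49 was tested itself and called (limma, adjusted p = 0.00208). Over 9 other settings the difference ran from 0.34 to 0.52 (adjusted p 0.000414 to 0.0445), and over the 12 left-out libraries from 0.45 to 0.55. The levels come from 2 tables scaled separately, and the part of that scaling in the difference was not tested. The overexpression effect on SLC25A51 itself differed by 2.23 (limma, adjusted p = 1.32e-07), with oeNC at 8.49 TPM with MPP+ and 31.6 TPM without. The part of that in the BCL2L1 difference was not tested either.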

How the results depend on the processing

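Over 9 settings other than the reported one and each library left out, HRK (both arms) and MCL1 (overexpression) under MPP+, BAK1 and BAD with untreated overexpression, and the BCL2L1 difference kept their direction and call wherever they could be fitted. The count of members called with knockdown under MPP+ was 2 and became 1 with no filter, the 5 TPM filter and the replicate block (BID, limma adjusted p = 0.0568), and 1 to 2 with a library left out. Over all genes these settings called 3882 of 34266, 3909 of 8920 and 4604 of 14895, and the left-out libraries 3413 to 4600 genes. With untreated knockdown the count of members was 3 and became 1 with no filter, 0 with only the groups compared and 0 with the GC trend removed, and 0 to 4 with a library left out. Over all genes these settings called 1272 of 32421, 0 of 14703 and 1501 of 14157, and the left-out libraries 2 to 7247 genes. With untreated overexpression the count of members was 3 and became 5 with the replicate block and 5 with only the groups compared, and 2 to 6 with a library left out. Over all genes these settings called 7658 and 7581 of 14703, and the left-out libraries 4005 to 7696 genes. With overexpression under MPP+ the count of members was 6, was 4 with the GC trend removed, and 4 to 6 with a library left out. Over all genes that setting called 6697 of 13923, and the left-out libraries 8143 to 8707 genes. For the difference between knockdown effects the count of members was 0, and 0 to 2 with a library left out, where 257 to 2559 of all genes were called. For the difference between overexpression effects the count of members was 1 and became 2 with the 5 TPM filter, 4 with the replicate block, 2 with only the groups compared and 3 with the GC trend removed, and 1 to 3 with a library left out. Over all genes these settings called 2249 of 8361, 3023 of 13571, 2702 of 13571 and 3622 of 13151, and the left-out libraries 2137 to 2748 genes. Same-numbered libraries correlated at -0.0729 to 0.211 in their deviations from group means; in both overexpression comparisons all 6 libraries correlated best with their own number, a hint from the data and not the design.

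Among values called as reported or under the alternative, those that changed sign with overexpression under MPP+ were, with median-of-ratios scaling, BCL2L1 -0.065 and BCL2L13 -0.032; with quantile normalization, BCL2L1 -0.042 and BCL2L11 -0.23; and with the GC trend removed, BCL2 -0.041, BCL2L11 -0.28, BAD 0.0074, BBC3 0.17 and PMAIP1 -0.44. BID there, called in neither, was -0.21, -0.16 and -0.10 under the same 3 settings, against 0.11 as reported. PMAIP1 with untreated overexpression was -0.17 with the GC trend removed. Median-of-ratios scaling brought the median of all genes to 0.02, -0.01, 0.02 and -0.03 in the 4 comparisons, from the values given above of up to 0.26; the cause of the shift was not tested. Depth is unknown, which limits BOK, BCL2 and HRK most.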
